A study of Mus musculus with 12 samples.

Results

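Germ cell tudor domain genes were followed in whole testes of mice at postnatal day 7 that lacked Sohlh2 or Sohlh1 or neither. The 8 genes asked for were Tdrd1, Tdrd5, Tdrd6, Tdrd7, Tdrd9, Tdrkh, Rnf17 and Stk31, and every probe set that the array's annotation ties to exactly 1 of them was taken. That gave 12 probe sets for 7 genes, out of 45037 probe sets other than controls and 18193 named genes. Stk31 and Tdrd7 had 2 each, Rnf17 had 4, and Tdrd1, Tdrd5, Tdrd9 and Tdrkh had 1 each. No probe set was annotated to Tdrd6 alone, which encodes a tudor protein of the chromatoid body of spermatids, so it has no value here. A filter on dim signals kept 11 of the 12 probe sets among 28694 tested, and the other one, 1459216_at of Tdrd7, read between 1.98 and 34.7 on every array.

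The 12 arrays, Affymetrix whole-genome mouse arrays, fell into 3 groups of 4: homozygous Sohlh2 knockout, homozygous Sohlh1 knockout and wild type. All animals were of a hybrid background, which the labels give as C57BL/6, 129S5, SvEvBrd, and every group was sampled at postnatal day 7. Each array held RNA of 3 testes pooled from 3 animals, so that a group stood for 12 animals and each p-value measures the spread between pools. Values are MAS5 signals, a linear brightness scaled so that every array has the same trimmed mean. The number of arrays limits the precision.

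Tudor domains are protein folds that bind methylated arginine or lysine. In animal germ cells tudor proteins hold on to PIWI proteins, whose arginines are methylated, and gather them in nuage, a granule beside mitochondria and the nucleus. There PIWI proteins are loaded with piRNAs, small RNAs that silence transposons, and mouse mutants of several tudor genes are male sterile. Sohlh1 and Sohlh2 are transcription factors of spermatogonia with a helix-loop-helix fold, a class of protein that binds the E-box, a short DNA motif. The comparisons asked how the transcripts of tudor genes differ in testes that lack either factor. In whole testes fewer cells of a type and less RNA per cell cannot be told apart.

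The 250 bases before the transcript start are shown for the 2 genes whose probe sets passed the test, Stk31 and Tdrd5, and for Tdrkh, whose values were lower in the knockouts. They come from RefSeq (GRCm38.p6), which held a promoter for 6 of the 8 genes, and each is written 5′ to 3′ on the strand of its gene, with the letters CANNTG of an E-box in capitals. For Stk31 the first of its listed starts is used. The regions are chr6:49395289-49395538 on the plus strand for Stk31, chr1:156303349-156303598 on the minus strand for Tdrd5 and chr3:94412994-94413243 on the plus strand for Tdrkh.
Stk31: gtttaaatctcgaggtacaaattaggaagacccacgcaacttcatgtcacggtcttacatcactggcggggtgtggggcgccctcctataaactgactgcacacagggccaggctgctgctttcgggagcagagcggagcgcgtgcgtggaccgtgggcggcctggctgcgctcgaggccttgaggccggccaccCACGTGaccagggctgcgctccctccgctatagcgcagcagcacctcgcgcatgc
Tdrd5: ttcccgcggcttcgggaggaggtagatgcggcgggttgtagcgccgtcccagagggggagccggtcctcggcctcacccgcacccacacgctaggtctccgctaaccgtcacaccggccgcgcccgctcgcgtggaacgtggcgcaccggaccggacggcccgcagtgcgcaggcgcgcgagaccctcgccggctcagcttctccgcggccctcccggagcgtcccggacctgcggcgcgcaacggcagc
Tdrkh: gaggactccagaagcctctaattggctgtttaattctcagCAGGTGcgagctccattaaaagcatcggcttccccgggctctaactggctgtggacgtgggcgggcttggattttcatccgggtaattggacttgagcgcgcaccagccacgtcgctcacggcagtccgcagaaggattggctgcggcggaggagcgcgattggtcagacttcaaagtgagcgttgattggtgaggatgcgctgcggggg
CANNTG is its own reverse complement, so the search covers both strands. The Stk31 stretch held 1, CACGTG, whose first base lay at -55 from the start, and the Tdrkh stretch held 1, CAGGTG, at -210. The Tdrd5 stretch had 0 matches, which says only that these letters are not in this window. Of 32851 promoters in the same table, 66.2% held at least 1 CANNTG in the same 250 bases, so a match is common and marks no site of binding. The core AACNG bound by MYB factors was also counted on either strand, where it can overlap an E-box. It occurred 1 time in Stk31, 2 times in Tdrd5 and 2 times in Tdrkh, and 74.2% of promoters held it. Among the other tudor genes, the first listed promoter held 4 matches to CANNTG in Tdrd9, 2 in Tdrd1 and 2 in Tdrd7, and AACNG occurred 1 time in Tdrd9, 0 times in Tdrd1 and 5 times in Tdrd7. These counts depend on the start used. The later listed starts held 0 and 1 CANNTG in Tdrd7 and 2 and 3 in Tdrd1. AACNG occurred there 2 and 3 times in Tdrd7 and 1 and 2 times in Tdrd1.

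The targeted genes check the labels, if their single probe sets lie in the deleted parts, which the labels do not say. Of the arrays labelled Sohlh2 knockout, numbers 3-1, 4 and 5 gave Sohlh2 signals of 157, 93.6 and 73.2, against 885 to 1200 in wild type. The array labelled Sohlh2 knockout 1 instead read 1847 for Sohlh2 and 126 for Sohlh1. Sohlh1 read 50.2 to 104 on the arrays labelled Sohlh1 knockout 2, 3 and 4, against 1125 to 1233 in wild type, while the array labelled Sohlh1 knockout 5 read 595 for Sohlh1 and 94.4 for Sohlh2. Sohlh2 read 1556 to 1783 on the arrays labelled Sohlh1 knockout 2, 3 and 4. Sohlh1 read 465 to 563 on those labelled Sohlh2 knockout 3-1, 4 and 5. On 2 arrays the targeted genes thus went against the label, and both genes read closer to the other knockout's arrays. All groups here keep the labels, so each single knockout group may hold arrays of both genotypes, which was not tested. The fold change of both knockouts pooled against wild type does not depend on which knockout label an array carries. Separately, the arrays labelled Sohlh2 knockout 1 and Sohlh1 knockout 2 had high ratios of the 3′ to the 5′ Gapdh control, 1.63 and 1.17, against 0.744 to 0.818 on the other 10 arrays, a sign of RNA quality. Results that rest on these 3 arrays are given with and without them.

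Stk31 rose in both knockouts, by 1.35- to 1.46-fold. It encodes a protein with a tudor domain and a kinase domain that is made in male germ cells. On the first probe set, 1425317_x_at, the signal was 3094, 2347, 2578 and 2652 on the Sohlh2 knockout arrays. The Sohlh1 knockout arrays gave 2599, 2567, 2473 and 2612, and the wild-type arrays 1853, 1735, 1939.7 and 1712. All 8 knockout arrays lay above all 4 wild-type arrays, and the knockouts overlapped each other. The means were 2668 ± 312 in Sohlh2 knockout testes, 2563 ± 63.1 in the Sohlh1 knockout and 1810.0 ± 106 in wild type (SD, n = 4 each).

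The second probe set of Stk31, 1454138_a_at, showed the same arrangement. It gave 2448, 2368, 2723 and 2649 in Sohlh2 knockout testes, 2198, 2510.4, 2457 and 2549.5 in the Sohlh1 knockout, and 1857, 1826, 1790.0 and 1712 in wild type. Again no knockout array reached down to a wild-type array. Probe sets ending in _a_at or _x_at can match several transcripts of a gene or, for _x_at, other genes, and levels are not compared between probe sets.

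In the Sohlh2 knockout the probe sets of Stk31 were 1.46-fold (95% interval 1.28 to 1.68) and 1.41-fold (1.25 to 1.60) those of wild type, with adjusted p of 0.00681 and 0.00682 (limma, Benjamini-Hochberg over all 28694). In the Sohlh1 knockout they were 1.41-fold (1.24 to 1.62) and 1.35-fold (1.19 to 1.52), with limma adjusted p of 0.0110 and 0.0152. The knockout comparisons share the wild-type arrays, so they are not independent of each other. Stk31 was the only tudor gene of the 7 that passed in either comparison, with 2 of 11 probe sets in each. Over all probe sets tested, 1.55% passed in the Sohlh2 knockout and 2.09% in the Sohlh1 knockout, or 0.606% and 0.707% counting rises alone. The second probe set lost the threshold in the Sohlh1 comparison without the array labelled Sohlh1 knockout 5, without wild type 5 and without wild type 6, with adjusted p up to 0.0580. In the Sohlh2 comparison both stayed under 0.05 whichever 1 array was left out.

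**Figure D1:**
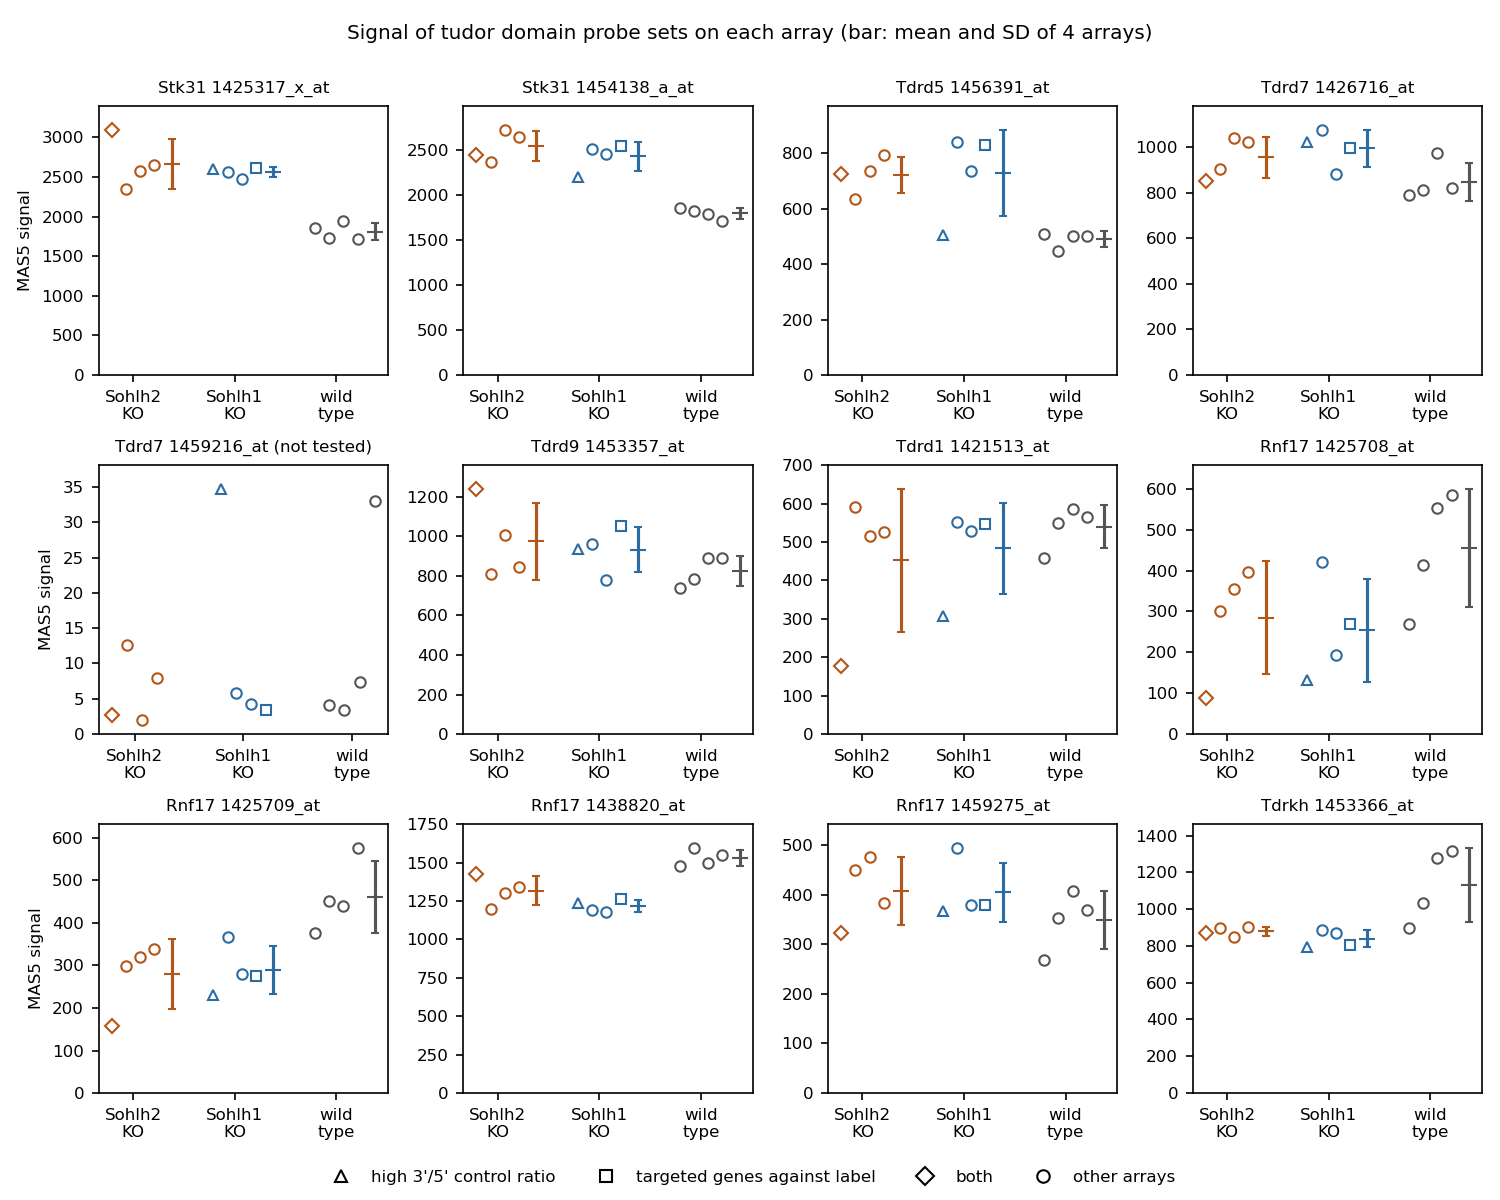
MAS5 signal (linear scale from 0) of each of the 12 tudor domain probe sets on each array, in Sohlh2 knockout testes, the Sohlh1 knockout and wild type, with a bar for the mean and SD of 4 arrays. Symbol shapes mark the arrays with a high 3′ to 5′ control ratio or with targeted genes against the label. In both Stk31 panels all 8 knockout points lie above the 4 wild-type points, while for Rnf17 1425709_at and 1438820_at all 8 lie below.

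With both knockouts pooled, Stk31 and Tdrd5 passed the test, both higher, which made 2 of 7 genes and 3 of 11 probe sets. The share of all probe sets was 3.49%, and 1.35% for rises. The Stk31 probe sets were 1.44-fold (1.28 to 1.62) and 1.38-fold (1.24 to 1.53) those of wild type in that comparison, with limma adjusted p of 0.00189 and 0.00227. Without the 2 arrays of high control ratio, without the 2 whose targeted genes went against the label, and without all 3, both stayed called, at log2 fold changes of 0.46 to 0.50.

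Tdrd5 encodes a protein with tudor and LOTUS domains that mouse male germ cells need for transposon silencing. Its probe set, 1456391_at, gave 725, 635, 738 and 794 on the Sohlh2 knockout arrays. On the Sohlh1 knockout arrays it gave 505, 842, 737 and 831, against 509.9, 449, 501 and 503 in wild type. The array labelled Sohlh1 knockout 2, of high control ratio, lay within the wild-type range, and the other 7 knockout arrays lay above it. Means were 723 ± 66.1 in Sohlh2 knockout testes, 729 ± 156 in the Sohlh1 knockout and 491 ± 28.3 in wild type (SD, n = 4 each).

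Neither knockout alone passed for Tdrd5. The log2 fold change was 0.54 in the Sohlh2 knockout (SE 0.15, 95% interval 0.23 to 0.86, limma adjusted p = 0.0884) and 0.53 in the Sohlh1 knockout (SE 0.15, 0.22 to 0.85, limma adjusted p = 0.0830). Pooled it was 0.54 (SE 0.13, limma adjusted p = 0.0307), a 1.45-fold rise (1.20 to 1.75). The pooled call ended in 9 of 12 fits that left out 1 array: any of the 4 wild-type arrays, the arrays labelled Sohlh1 knockout 3, 4 and 5, and those labelled Sohlh2 knockout 4 and 5 (adjusted p up to 0.116). The log2 fold change stayed between 0.50 and 0.62 in those 12 fits. It held without the 2 arrays of high ratio (0.62, adjusted p = 0.00123), without the 2 of doubted label (0.50, adjusted p = 0.0454) and without all 3 (0.60, adjusted p = 0.00377). Without the 2 arrays of high ratio Tdrd5 also passed in the Sohlh2 knockout (0.54, adjusted p = 0.0154) and in the Sohlh1 knockout (0.69, adjusted p = 0.00276). Without the 2 of doubted label it missed in both, at 0.54 (limma adjusted p = 0.113) and 0.46 (0.124) in that order. Without all 3 it passed in both, at 0.54 (limma adjusted p = 0.0202) and 0.67 (0.0169).

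Tdrd7, another protein with tudor and LOTUS domains, which acts in the chromatoid body, and Tdrd9, an RNA helicase that works with the PIWI protein Piwil4, had higher means in the knockouts that did not pass the test. For Tdrd7 1426716_at the Sohlh2 knockout arrays gave 851, 902, 1038 and 1023, the Sohlh1 knockout arrays 1020.2, 1074, 882 and 997, and the wild-type arrays 790.5, 809, 972 and 819. The groups overlapped through wild type 5, and 5 of 8 knockout arrays lay above every wild-type array. The pooled log2 fold change was 0.20 (limma adjusted p = 0.294). For Tdrd9 1453357_at the values were 1240.3, 811, 1006 and 846 in Sohlh2 knockout testes, 939, 960.3, 779 and 1055 in the Sohlh1 knockout, and 739, 782, 889 and 891 in wild type. Here too 5 of 8 knockout arrays lay above the wild-type range, and the pooled log2 fold change was 0.20 (limma adjusted p = 0.435). The value for Tdrd9 was 0.13 without the 2 arrays of high ratio, 0.11 without the 2 of doubted label and 0.09 without all 3.

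Tdrd1, the main tudor partner of the PIWI protein Piwil2, was lowest on the 2 arrays of high control ratio. Probe set 1421513_at read 177 on the array labelled Sohlh2 knockout 1 and 307 on the array labelled Sohlh1 knockout 2. The other Sohlh2 knockout arrays read 590.3, 515 and 526, the other Sohlh1 knockout arrays 553, 529 and 548, and wild type 458, 550.4, 587 and 564. On the log2 scale Tdrd1 differed from wild type by -0.37 in the Sohlh2 knockout (95% interval -1.01 to 0.27, limma adjusted p = 0.634) and by -0.18 in the Sohlh1 knockout (-0.82 to 0.45, limma adjusted p = 0.817). Without those 2 arrays the pooled value was 0.01, and its sign turned with the setting, so no direction is given for Tdrd1.

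**Figure D2:**
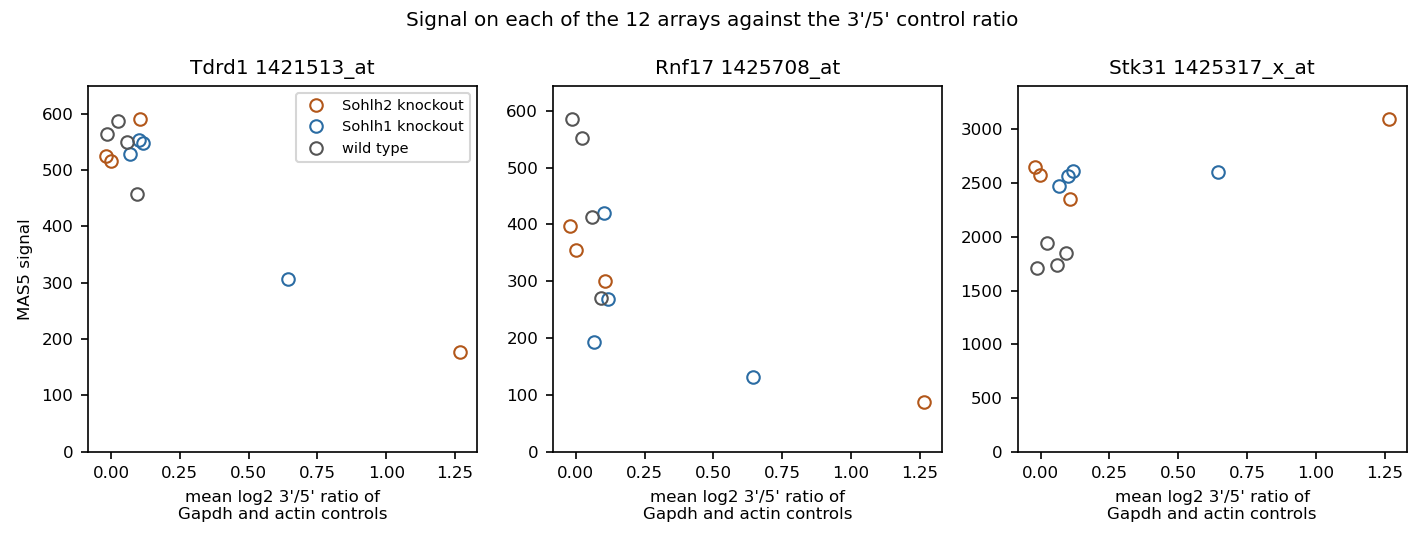
MAS5 signal of Tdrd1 1421513_at, Rnf17 1425708_at and Stk31 1425317_x_at (vertical axes, linear from 0) against the mean log2 ratio of the 3′ to the 5′ Gapdh and actin controls (horizontal axis), 1 point for each of 12 arrays coloured by group. The points at 0.64 and 1.27 are the arrays labelled Sohlh1 knockout 2 and Sohlh2 knockout 1, which have the lowest signals of Tdrd1 and Rnf17 1425708_at but not of Stk31.

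Rnf17, a protein with a RING finger and tudor domains that is needed for spermatids to mature, had 4 probe sets, and 3 of them read lower in the knockouts. On 1438820_at, the Sohlh2 knockout arrays gave 1429, 1197, 1304 and 1342 and the Sohlh1 knockout arrays 1235, 1190.1, 1178 and 1266. The wild-type arrays gave 1479, 1595, 1496 and 1549.5, above all 8 knockout arrays. Its log2 fold change was -0.22 in the Sohlh2 knockout (limma adjusted p = 0.269), -0.33 in the Sohlh1 knockout (limma adjusted p = 0.0627) and -0.27 pooled (95% interval -0.43 to -0.12, limma adjusted p = 0.0569).

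On 1425709_at of Rnf17 the values were 159, 299, 320.1 and 339 in Sohlh2 knockout testes, 232, 367, 280.5 and 276 in the Sohlh1 knockout, and 376, 451, 441 and 576 in wild type. All 8 knockout arrays lay below wild type, the nearest being 367 on the array labelled Sohlh1 knockout 3 beside 376 on wild type 3. The pooled log2 fold change was -0.69 (95% interval -1.10 to -0.29, limma adjusted p = 0.0605). On 1425708_at the Sohlh2 knockout arrays gave 87.0, 301, 355 and 397 and the Sohlh1 knockout arrays 131, 421, 193 and 269, against 270.0, 413, 552 and 585 in wild type. These groups overlapped, and the pooled log2 fold change of -0.82 had a wide interval (-1.59 to -0.05, limma adjusted p = 0.258).

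The probe sets of Rnf17 disagreed in sign. The fourth, 1459275_at, read 323, 449, 475 and 383 in Sohlh2 knockout testes, 368, 494, 379 and 379 in the Sohlh1 knockout, and 268, 353, 407 and 369 in wild type. Only 3 of 8 knockout arrays lay above the wild-type range, and the pooled log2 fold change was 0.21 (limma adjusted p = 0.465), or 0.10 without wild type 3. The calls of the probe sets that were lower changed with the setting. With all 12 arrays, 1425709_at passed pooled with quantile normalization (adjusted p = 0.0387), a log offset at the median of all values (0.0486) or array weights (0.0229), and 1438820_at with a filter at the median (0.0420), array weights (0.0109) or 1 probe set per gene (0.0313). Without the 2 arrays of doubted label both passed, 1425709_at at -0.57 (adjusted p = 0.0416) and 1438820_at at -0.30 (adjusted p = 0.0351). Without the 2 arrays of high control ratio, 1425709_at had -0.53 (adjusted p = 0.0260) and 1438820_at -0.29 (adjusted p = 0.0205), both past the threshold. Without all 3 doubted arrays 1438820_at passed at -0.31 (adjusted p = 0.0253) and 1425709_at missed at -0.49 (adjusted p = 0.0555), while 1425708_at went to -0.45 and was not called.

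Tdrkh encodes a tudor and KH domain protein of the outer membrane of mitochondria that takes part in trimming piRNA precursors. Its probe set, 1453366_at, gave 869, 897, 848 and 904 in the Sohlh2 knockout and 792, 889, 869 and 807 in the Sohlh1 knockout. In wild type it gave 895, 1034, 1279 and 1317, a wider spread than in either knockout. The Sohlh1 knockout lay wholly below wild type, and the Sohlh2 knockout overlapped it at wild type 3. The log2 fold change was -0.34 in the Sohlh2 knockout (95% interval -0.59 to -0.09, limma adjusted p = 0.204), -0.41 in the Sohlh1 knockout (-0.66 to -0.16, limma adjusted p = 0.101) and -0.37 pooled (-0.59 to -0.16, limma adjusted p = 0.0614). With 1 probe set for each gene, and so fewer tests, the pooled adjusted p was 0.0303. On all 28694 probe sets Tdrkh passed without wild type 3, in the Sohlh1 knockout (-0.51, adjusted p = 0.0295) and pooled (-0.48, adjusted p = 0.0165), and pooled with array weights (-0.35, adjusted p = 0.0320). In 25 of the 29 pooled alternatives it stayed uncalled. Pooled, it missed without the 2 arrays of high ratio (limma adjusted p = 0.0589), without the 2 of doubted label (0.0850) and without all 3 (0.109). With 1 array left out the pooled adjusted p reached 0.239.

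**Figure D3:**
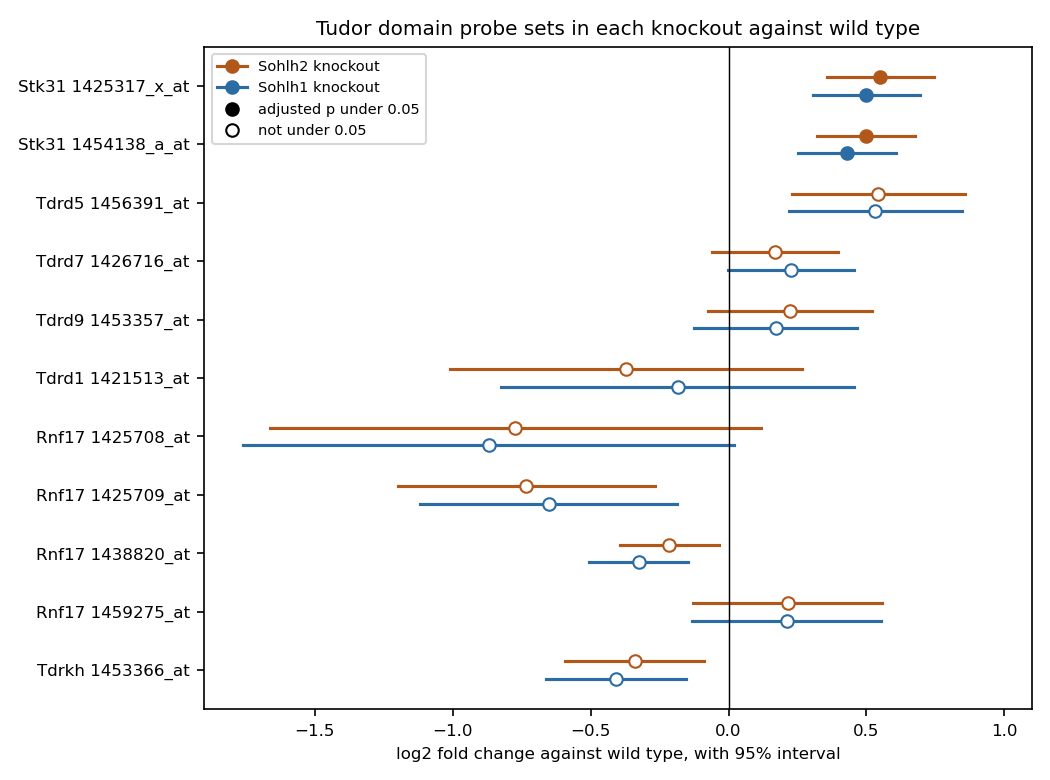
Log2 fold change with its 95% interval (horizontal axis) of the 11 tested tudor domain probe sets in the Sohlh2 knockout (upper of each pair) and the Sohlh1 knockout (lower), each against wild type. Filled points have limma adjusted p under 0.05, which only the probe sets of Stk31 reach, and the widest intervals are those of Rnf17 1425708_at.

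Of the 11 probe sets 6 had a positive log2 fold change in each of the 3 comparisons with wild type. Their median was 0.17 in Sohlh2 knockout testes, 0.17 in the Sohlh1 knockout and 0.20 pooled, beside medians of -0.0038, -0.0027 and -0.0055 over all probe sets tested. These medians count Rnf17 4 times and Stk31 2 times, and the values went both ways, so they give no direction for the family. In 4 of the 11 all 8 knockout arrays lay on 1 side of all wild-type arrays, both of Stk31 above and 2 of Rnf17 below. Over all probe sets 5.09% had that arrangement, 2.11% above and 2.98% below.

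**Figure D4:**
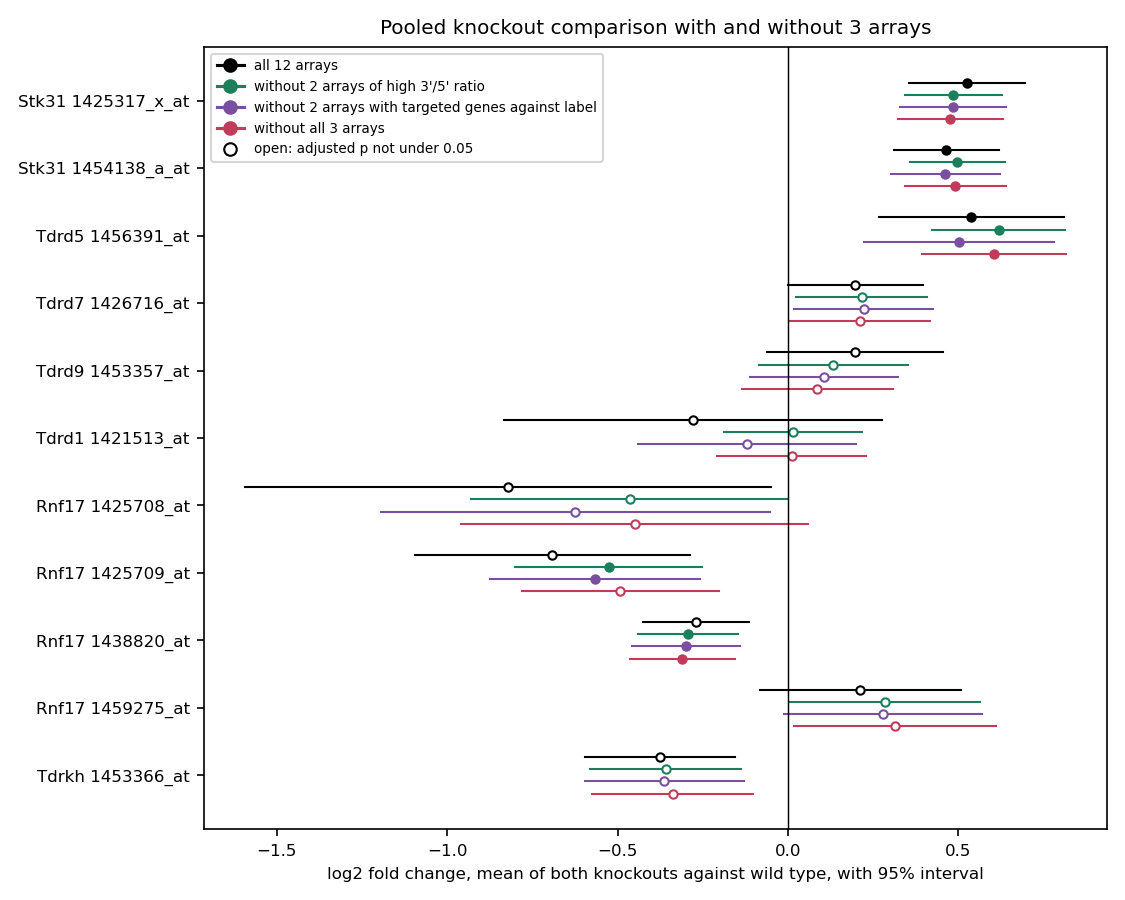
Log2 fold change with 95% interval (horizontal axis) of each tested tudor domain probe set, mean of both knockouts against wild type, with all 12 arrays, leaving out those of high control ratio, those with targeted genes against the label, or all 3. Stk31 and Tdrd5 stay filled (adjusted p under 0.05) in all 4 settings, and the interval of Rnf17 1425708_at narrows. Tdrd1 moves to about 0 without the arrays of high control ratio or without all 3, and to -0.12 without those with targeted genes against the label.

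No difference between the knockouts passed the test for a tudor gene. Between the Sohlh2 knockout and the Sohlh1 knockout the log2 differences of the 11 probe sets ran from -0.19 (Tdrd1) to 0.11 (Rnf17), and their 95% intervals spanned -0.83 to 0.99. In limma's fit 0 of the 11 had an unadjusted p under 0.05, and the lowest adjusted p among them was 1.00. Over all 28694 probe sets 0% passed the adjusted threshold with limma, and 767 (2.67%) had an unadjusted p under 0.05. With arrays of doubted label in both knockouts, these differences are between groups as labelled. Without the 2 arrays of doubted label the difference of Rnf17 1425708_at was 0.62 (95% interval -0.10 to 1.35, adjusted p = 0.762), where all arrays gave 0.10, and that of Tdrd1 was 0.27 (-0.14 to 0.67, adjusted p = 0.793), with its sign turned. Without all 3 arrays these differences were 0.28 and 0.0050. Without the 2 arrays of doubted label 9 probe sets passed, and without all 3 arrays 11 did, with 0 of the tudor genes in either case.

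Among genes that work with tudor proteins in piRNA production and nuage, 4 of 15 measured changed in the pooled comparison, 3 higher and 1 lower. Over all 13702 genes, counted in the same way with 1 probe set each, 4.69% passed, 1.99% higher and 2.7% lower. Asz1, a mitochondrial membrane protein of nuage, averaged 1988 ± 152 in Sohlh2 knockout testes, 1865 ± 113 in the Sohlh1 knockout and 1274 ± 37.0 in wild type (SD, n = 4 each; pooled log2 fold change 0.59, limma adjusted p = 0.000438). Gtsf1, a zinc finger protein that helps PIWI proteins silence, averaged 5549 ± 836 in Sohlh2 knockout testes, 4997 ± 893 in the Sohlh1 knockout and 2780.3 ± 246 in wild type (pooled 0.91, limma adjusted p = 0.000438). Both passed in each knockout as well. The other tested probe set of Asz1 had 0.15 and was not called, and the other of Gtsf1 passed at 0.75.

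Pld6, a mitochondrial protein that in mice is needed to make piRNAs, went the other way. It averaged 571 ± 7.01 in Sohlh2 knockout testes, 648 ± 84.4 in the Sohlh1 knockout and 1001 ± 114 in wild type (pooled -0.70, limma adjusted p = 0.00123). The RNA helicase Ddx25 rose by 0.46 pooled (limma adjusted p = 0.0197), with means of 2247 ± 313 in Sohlh2 knockout testes, 2136 ± 235 in the Sohlh1 knockout and 1581 ± 134 in wild type, and lost the threshold without wild type 3, 4 or 6 (adjusted p up to 0.0849). In the Sohlh2 knockout 3 of the 15 rose and 1 fell, with the Ddx25 call lost in 10 of the 12 fits that left out 1 array, and in the Sohlh1 knockout 2 rose and 1 fell. Over all genes 2.17% passed in the Sohlh2 knockout and 2.89% in the Sohlh1 knockout. The Sohlh1 fall, Pld6 at -0.62, was lost without wild type 5, without wild type 6, and without the 3 doubted arrays (adjusted p = 0.0568, 0.0542 and 0.0572). Without the array labelled Sohlh2 knockout 1, 4 rose and 2 fell in the Sohlh1 comparison. The list's median was -0.0032 pooled, beside -0.0055 over all probe sets. The list mixes rises and a fall and is described by its counts alone. Piwil2, the PIWI partner of Tdrd1, had -0.15 (limma adjusted p = 0.296) and was picked after its value was seen.

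**Figure D5:**
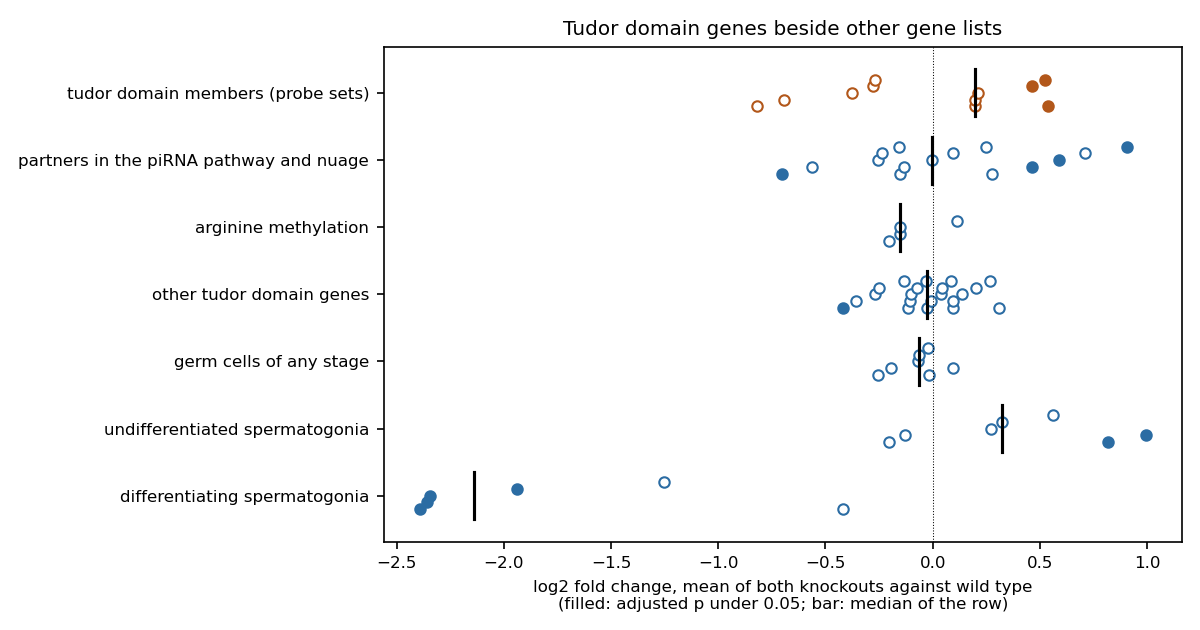
Pooled log2 fold change (horizontal axis) of each member of the named lists, with the tudor domain probe sets in the top row and 1 probe set per gene in the others, filled where limma adjusted p is under 0.05. Black bars mark row medians, which run from -2.14 for differentiating spermatogonia to 0.32 for undifferentiated spermatogonia and lie at 0.20 for the tudor probe sets.

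A further list named 22 tudor domain genes other than the members. It held Tdrd15 and also Tdrd12, which is on the piRNA list too, so it does not stand wholly outside the germ cell family. Of its 21 measured genes, 1 fell and 0 rose in the pooled comparison, a share near the 4.69% of all genes. The Sohlh1 knockout gave the same count, while 0 passed with limma in Sohlh2 knockout testes, where that gene had an unadjusted p of 0.0064. The gene was Uhrf1, a reader of histone marks and of hemimethylated DNA, with means of 1778 ± 61.6 in Sohlh2 knockout testes, 1529 ± 49.9 in the Sohlh1 knockout and 2227 ± 327 in wild type. Its pooled log2 fold change was -0.42 (limma adjusted p = 0.0134), and with median centring of each array it missed the threshold (-0.38, adjusted p = 0.0602). Its other tested probe set had -0.89 and was not called. The methyl mark that tudor domains read on PIWI proteins is set by Prmt5 with its cofactor Wdr77. None of the 4 genes listed for arginine methylation passed in limma's pooled fit, although Wdr77, at -0.15, had an unadjusted p of 0.0407. The others were Prmt5 at -0.20, Riok1 at -0.15 and Clns1a at 0.11.

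Markers of germ cell stages moved between the groups, and their part in the tudor values was not tested. The summed signal of 7 general germ cell genes was 26083 to 30388 in Sohlh2 knockout testes, 25261 to 29103 in the Sohlh1 knockout and 27123 to 30803 in wild type, which overlap, and 0 of the 7 passed in limma's pooled fit, with 1 at an unadjusted p under 0.05. The sum of 6 genes of differentiating spermatogonia was 4980 to 7453 in Sohlh2 knockout testes, 5304 to 6696 in the Sohlh1 knockout and 10527 to 13747 in wild type, with no overlap, and 4 of 6 fell. That list holds Sohlh1 and Sohlh2 themselves. The sum of 7 genes of undifferentiated spermatogonia was 8534 to 10371 in Sohlh2 knockout testes, 7649 to 10056 in the Sohlh1 knockout and 7312 to 7994 in wild type, and Gfra1 and Id4 rose among them. Pooled, 1 of 3 tested probe sets of Gfra1 was called (log2 fold changes 0.36 to 0.99) and 2 of 3 of Id4 (0.43 to 0.82). Of 9 genes of meiotic spermatocytes, Hormad1 and Sycp2 rose and Tex11 and Syce1 fell. The median of the 9 was -0.41 pooled, and all 9 had an unadjusted p under 0.05 in limma's pooled fit. Over all 28694 probe sets tested, 17.2% had an unadjusted p under 0.05 in that fit. Their sum was 6433 to 9340 in Sohlh2 knockout testes, 6830 to 7504 in the Sohlh1 knockout and 8199 to 11616 in wild type. Over all genes, with 1 probe set each, 4.69% passed pooled, 1.99% higher and 2.7% lower. None of the 8 Sertoli, 4 Leydig, 4 myoid, 4 endothelial and 4 macrophage markers tested passed in limma's pooled fit, and 0 of them had an unadjusted p under 0.05. Sertoli, Leydig and germ cell markers were present in every group. The summed signal of 6 spermatid genes was low but higher in the knockouts, at 335 to 430 in Sohlh2 knockout testes and 316 to 431 in the Sohlh1 knockout, against 217 to 279 in wild type, with no overlap. Below the filter value of 48.6 on every array of their group lay Tnp2 and Acrv1 in Sohlh2 knockout testes, Prm1 and Tnp2 in the Sohlh1 knockout, and all 3 in wild type. Of the 3 spermatid genes tested, 1 rose in each knockout and pooled, Spaca1, which encodes a membrane protein of the acrosome. It averaged 245 ± 26.2 in Sohlh2 knockout testes, 239.6 ± 23.7 in the Sohlh1 knockout and 115 ± 26.6 in wild type (SD, n = 4 each; pooled log2 fold change 1.01, limma adjusted p = 0.00138).

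The genes whose centred log2 values ran closest to those of the called probe sets were found over the 12 arrays among 13702 genes. For Stk31 1425317_x_at they were Rpl39l and Pigf, with root mean square differences of 0.092 and 0.092, against a median of 0.34 over all genes. For the other probe set of Stk31 they were Bnc2 and Gpsm3, at 0.075 and 0.088 with a median of 0.31, so its neighbours shared no gene with those of the first. Tdrd5 had Satb1 and Gpsm3, at 0.13 and 0.14 with a median of 0.38. The nearest of 13702 genes lie below the median by construction. A gene with the same value on all arrays would stand at 0.27 and 0.23 from the probe sets of Stk31 and 0.31 from Tdrd5. The measure takes in the difference between genotypes and array effects alike.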

How the data were processed

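RNA of whole testes at postnatal day 7 was measured on 12 arrays, 4 per group, with groups and replicate numbers taken from the sample titles. RNA was labelled from an oligo(dT) primer, per the labels' protocols, so a signal reports mainly on the 3′ end of a transcript. The deposited intensity values are linear signals from MAS5 and GCOS according to the submitters' processing notes, whose versions are not given here. Array medians were 76.6 to 90.7, and each array had 26469 to 28348 probe sets above the filter below.

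Intensity was turned to log2(value + 14.2), the offset being the 20th percentile of all values outside the 64 controls, and was not normalized further. On this scale the changes of dim probe sets are understated. Probe sets above 48.6, the 40th percentile, on at least 4 arrays were tested. Symbols came from the platform's annotation, in which 34945 probe sets had exactly 1 symbol, 932 several and 9160 none. By Entrez identifier 34741 matched the RefSeq gene table (GRCm38.p6), which changed 0 symbols. No build is given for the array, so positions of its probe sets are left out. The promoter positions are those of RefSeq.

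One limma fit (version 3.58.1, R 4.3.3; functions lmFit, contrasts.fit, eBayes with trend) held the 12 arrays with a term for genotype and no other. Tests were two-sided, with Benjamini-Hochberg adjustment over every probe set tested. Rose, fell, passed and called mean an adjusted p under 0.05, and a gene counts as changed if any of its probe sets was called. Context genes were each represented by the tested probe set of highest mean. The steps were tested on simulated data.

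The members and gene lists were chosen with earlier results of these data known. The rule for named genes took all member probe sets, Sohlh1, Sohlh2, up to 4 genes of smallest pooled p from each list (any gene of a list of 8 or fewer), and the 2 nearest genes of each called probe set. Alternatives were other log offsets, scalings, filters, choices of probe set, spread estimates, thresholds, the replicate number as a block, and leaving out each array. Fits without the arrays that stood apart, or with the control ratio as a covariate, were added after seeing the data. No array was moved between groups. Figures were drawn with matplotlib 3.10.9.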

Additional observations from a re-analysis of the deposited data

Results flagged for a closer look

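In 33 groups of 4 arrays, 1 for each tested tudor domain probe set and genotype, the highest or lowest value was set against the gap to its nearest neighbour. The value stood apart in 4 of them, while chance flags about 1 in 20. In the Sohlh1 knockout, Tdrd1 1421513_at was low at 307 on the array labelled Sohlh1 knockout 2, the other arrays of that group reading 529 to 553. The 3′ to 5′ ratio of the controls was high on this array. Also in the Sohlh1 knockout, Rnf17 1459275_at was high at 494 on the array labelled Sohlh1 knockout 3, against 368 to 379 on the others. In wild type, Tdrd5 1456391_at was low at 449 on wild type 4, with the others at 501 to 509.9, and without that array the pooled log2 fold change of Tdrd5 was 0.50 with adjusted p = 0.116. In wild type, Tdrd7 1426716_at was high at 972 on wild type 5, against 790.5 to 819 on the others.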

How the results depend on the processing

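Of 955 values of the tested tudor domain probe sets under alternatives, 874 kept their direction and their side of the threshold, 48 passed it newly, 17 lost it and 16, all of Tdrd1, changed sign. Most of the 955 had no call to lose, as only the probe sets of Stk31, and Tdrd5 pooled, were called with all arrays. The pooled Tdrd5 call was lost in 11 alternatives and kept in 18. Stk31 1425317_x_at kept its pooled call at every setting, between 0.46 and 0.57 on the log2 scale. The cause of the changes below was not tested, apart from settings that test fewer features or use fewer arrays by construction.

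With all arrays the count of tudor domain genes changed was 1 in Sohlh2 knockout testes, 1 in the Sohlh1 knockout and 2 pooled. In that order it was 2, 3 and 4 with 1 probe set per gene and likewise with array weights. The 4 pooled were 2 higher and 2 lower in both settings. With 1 probe set per gene, 513, 604 and 934 of all 13702 genes passed in the same order. The tudor count was 2 and 2 in the knockouts with quantile normalization and without all 3 doubted arrays. It was 2 and 3 with the control ratio in the fit and without the 2 arrays of high ratio. It was 2 in the Sohlh1 knockout with a filter at the median and without the 2 arrays of doubted label, and 2 in the Sohlh2 knockout with only the groups compared. At adjusted p under 0.01 in limma's fit it was 0 in the Sohlh1 knockout and 1 pooled, and without a trend it was 1 pooled. In the Sohlh1 knockout 6 of 11 member probe sets had an unadjusted limma p under 0.05, beside 14.9% of all tested. They were of Stk31 and Tdrd5, higher, and of Rnf17 and Tdrkh, lower. The pooled count was 3, 2 higher and 1 lower, with quantile normalization, a log offset or a filter at the median, or probe sets averaged per gene. It was split alike with the control ratio in the fit, and without the arrays of high ratio, those of doubted label or all 3. With 1 array left out it ran from 1 to 2 in Sohlh2 knockout testes, 1 to 3 in the Sohlh1 knockout and 1 to 3 pooled, and was 0 between the knockouts.

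Among all probe sets, 445 changed in Sohlh2 knockout testes, 600 in the Sohlh1 knockout and 1000 pooled. In that order the counts were 789, 1230 and 1532 with the control ratio in the fit, 747, 991 and 1566 without the 2 arrays of high ratio, 1075, 1227 and 1925 with array weights, and 144, 183 and 343 at adjusted p under 0.01. Without a trend they were 293 in the Sohlh2 knockout and 343 in the Sohlh1 knockout. Averaging the probe sets of each gene gave 375 in the Sohlh1 knockout and 638 pooled, on fewer features. The Sohlh2 knockout had 283 with only the groups compared, a setting that has no pooled form, and 767 without all 3 doubted arrays. Between the knockouts 9 passed without the 2 arrays of doubted label and 11 without all 3. With 1 array left out the counts ran from 202 to 503 in Sohlh2 knockout testes, 230 to 1238 in the Sohlh1 knockout and 430 to 1328 pooled. The highest Sohlh1 count came without the array labelled Sohlh2 knockout 1 and the lowest without wild type 6.

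Tdrd1 had a log2 fold change of 0.013 in Sohlh2 knockout testes, 0.0085 in the Sohlh1 knockout and 0.011 pooled without all 3 doubted arrays, and 0.013, 0.014 and 0.014 in that order without the 2 of high ratio. It had 0.013 in the Sohlh2 knockout without the 2 of doubted label. With the control ratio in the fit it had 0.0050 in Sohlh2 knockout testes, 0.058 in the Sohlh1 knockout and 0.032 pooled. With 1 array left out it ran from -0.54 to 0.013 in Sohlh2 knockout testes, highest without the array labelled Sohlh2 knockout 1, and from -0.26 to 0.014 in the Sohlh1 knockout, highest without the array labelled Sohlh1 knockout 2. The lowest and highest differences between the knockouts ran from -0.39 to -0.07 and from 0.10 to 0.56 with 1 array left out.

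Same-numbered arrays did not deviate together (correlations of -0.12 to 0.10 over all probe sets tested), so the numbers were not taken as pairs. With the replicate block and 3-1 as a number of its own, 98 probe sets changed in Sohlh2 knockout testes, 338 in the Sohlh1 knockout and 526 pooled. In that fit 2 tudor genes changed in the Sohlh1 knockout, Tdrd1 had 0.037 there, and in the Sohlh2 knockout Stk31 1425317_x_at missed the threshold (adjusted p = 0.0684). With the replicate block and 3-1 read as 3, 2 tudor genes changed in each knockout and Tdrd1 had 0.036 in Sohlh2 knockout testes, 0.037 in the Sohlh1 knockout and 0.037 pooled. The dim probe set of Tdrd7 and the 4 arrays per group limit what can be seen of small differences.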
